A study of Mus musculus with 42 samples.

Results

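The step from RST day 21 to RST day 35 was followed in the joint soft tissue of mice that had undergone knee arthroplasty, in which joint surfaces are exchanged for an implant. It was read from 8 RNA libraries, 4 for each day, of the 24 joint libraries and 42 libraries in the study, and every expressed gene entered the comparison. These were 16149 of the 36604 genes in the joint count table. All groups used here came from C57BL/6 wild-type mice without a transgene or a drug named in the labels. They were RST on days 3, 7, 14, 21 and 35 and LST on day 35, with 4 libraries each. RST and LST are the submitters' codes, given here without expansion, and LST was sampled on day 35 alone. The study asked which molecular pathways are at work in the joint while it heals, and this step covers its last interval.

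Repair of soft tissue begins with clotting and inflammation and passes to a phase in which activated fibroblasts multiply and lay down a provisional matrix. In that phase they secrete fibrillar collagens, which bear tension, elastic fibre proteins, which give recoil, and matricellular proteins, which bind both the fibres and cell receptors. During remodelling this secretion declines, collagen is cross-linked and turned over by proteases, and the cell types of the tissue return toward their resting mix.

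Depth was even, at 20563850 to 24814864 counts per library on day 21 and 21849869 to 24993500 on day 35. RST day 21 replicate 2 stood apart: its root mean square distance from the mean of its group was 0.587 on the log2 scale, against 0.343 to 0.476 for the other day 21 libraries and 0.351 to 0.389 on day 35. Its summed level of 25 mature muscle genes was 207020 CPM (read counts scaled to a common library size by TMM), against 258660 to 270720 CPM in the other day 21 libraries. Results are therefore given with all libraries and without that one. Nothing in the labels says that joint replicates came from separate animals, so the spread between replicates behind the p-values may be partly technical. Unless stated otherwise, that spread was estimated over all joint groups fitted together, including the other RST days and LST. It is therefore not the spread of the day 21 and day 35 libraries alone, for which a separate fit is given below.

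With all libraries, 641 genes passed edgeR's quasi-likelihood test at a Benjamini-Hochberg adjusted p below 0.05, which is 3.97% of the genes tested. Of these, 628 genes (3.89%) were lower on day 35 and 13 (0.0805%) were higher. A fall of more than 2-fold was seen in 342 genes and a rise of that size in 3. Replicate 2 of day 21 was the highest of the 8 libraries in 589 of the 628 lower genes. Without it, 35 genes passed (0.213% of 16411 tested), of which 34 (0.207%) were lower and 1 (0.00609%) was higher. All 35 were among the 641, in the same direction. Each of the 641 kept the sign of its change without the library, and 639 had an unadjusted p below 0.05 there. Both fits share all other libraries, and the 641 were chosen in the first, so this agreement is no separate support for them. At that unadjusted threshold 3540 genes were found with all libraries and 1572 without replicate 2. The number of genes passing moved with single libraries. Leaving out day 21 replicate 1, 3 or 4 gave 1350, 1884 or 191 genes. Without day 35 replicate 1, 2, 3 or 4 there were 67, 52, 41 or 755. When the fit held only the 8 libraries of the 2 days, no gene passed with all of them (2763 had an unadjusted p below 0.05), and 23 passed without replicate 2. Of the 35 genes, 17 were among those 23, and the 18 that were not included Ccdc3, Col1a1, Col1a2, Col12a1, Col18a1, Thbs2, Cthrc1, Aspn, Agtr2, Plagl1, Cpz, Ccdc141, Fscn1 and Ttk, of which Ttk was not tested there. In the fit without replicate 2, leaving out day 21 replicate 1, 3 or 4 as well gave 28, 85 or 6 genes. Leaving out day 35 replicate 1, 2, 3 or 4 there gave 25, 13, 12 or 30.

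**Figure D1:**
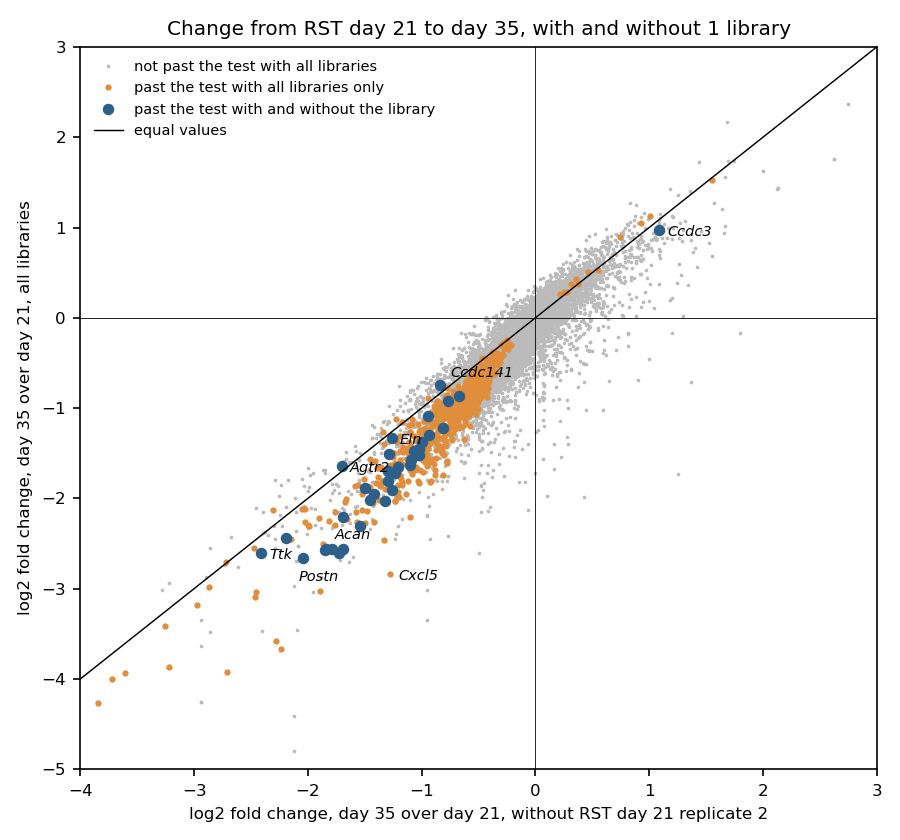
Log2 fold change from RST day 21 to RST day 35 of 16149 genes, with all libraries (vertical axis) and without RST day 21 replicate 2 (horizontal axis); 9 genes lie beyond the axes. The 35 genes past the test in both fits are the large points, and most genes lower on day 35 lie below the line of equal values, that is, their fall was larger with the library than without it.

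Periostin (Postn), Acan, Tnn, Ptn and C1qtnf3 formed the firmest part of the step. They were the 5 genes that passed in each of the 16 settings run without day 21 replicate 2, including those that left out a further library. All 5 were lower on day 35, and all encode secreted proteins of the matrix or its surroundings. To show what stands at their starts, the 150 bases upstream of each gene follow, 5′ to 3′ on the gene's strand, from RefSeq's promoter table (GRCm38.p6, the same coordinates as mm10). They are chr3:54360957-54361106 (+) for Postn, chr7:79053076-79053225 (+) for Acan, chr1:160153581-160153730 (−) for Tnn, chr6:36810221-36810370 (−) for Ptn and chr15:10952182-10952331 (+) for C1qtnf3. Capitals mark matches on either strand to 4 promoter motifs, namely TATAAA (the TATA box), CCAAT (the CCAAT box), GGGCGG (a GC box) and TGANTCA (the AP-1 site), which may overlap.
Postn: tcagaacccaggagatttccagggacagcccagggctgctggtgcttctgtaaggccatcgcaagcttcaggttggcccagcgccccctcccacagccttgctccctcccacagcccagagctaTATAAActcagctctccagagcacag
Acan: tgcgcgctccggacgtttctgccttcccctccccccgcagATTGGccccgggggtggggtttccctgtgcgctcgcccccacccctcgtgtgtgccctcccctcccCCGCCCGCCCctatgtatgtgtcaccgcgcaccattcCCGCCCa
Tnn: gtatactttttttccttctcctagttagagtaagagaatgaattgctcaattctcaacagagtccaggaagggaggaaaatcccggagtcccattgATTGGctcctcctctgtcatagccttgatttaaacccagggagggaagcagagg
Ptn: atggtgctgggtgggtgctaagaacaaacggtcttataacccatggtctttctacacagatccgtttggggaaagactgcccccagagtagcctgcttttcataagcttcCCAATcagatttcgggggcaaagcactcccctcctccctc
C1qtnf3: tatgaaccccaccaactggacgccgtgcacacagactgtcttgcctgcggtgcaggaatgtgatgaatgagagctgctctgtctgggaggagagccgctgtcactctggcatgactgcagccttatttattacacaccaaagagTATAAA
In Tnn and Ptn, 5 and 41 bases lie between the stretch shown and the RefSeq start, and in the others none. The RefSeq start of Acan lies upstream of the gene start given below. The 5 stretches shared no single motif. Postn held TATAAA with its first base 26 bases before the RefSeq start, and C1qtnf3 held it 6 bases before. A CCAAT match began 59 bases before the RefSeq start in Tnn, 81 in Ptn and 110 in Acan, and Acan also held 3 GGGCGG matches. No TGANTCA match was found in these windows. Of all 32851 windows of that length in the table, 7.57% held TATAAA, 24.5% CCAAT, 28.6% GGGCGG and 4.24% TGANTCA. Of 11752 genes tested, with 1 window each, the shares were 3.94%, 27.6%, 50.9% and 2.93%. Of the 34 genes lower in both fits, 27 had a window, and 4, 10, 11 and 1 of these held the motifs, in that order. A match describes the letters of the window and shows no binding.

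Postn (chr3:54361109-54391037, + strand, mm10) encodes a matricellular protein that binds collagen and is made by activated fibroblasts. It stood at 198, 615, 137 and 255 CPM in replicates 1 to 4 of day 21 and at 43.4, 48.7, 35.3 and 63.2 CPM in those of day 35. Replicate 2 of day 21 was far above every other library, and the lowest day 21 library was still 2.17 times the highest of day 35. Postn fell by 2.66 ± 0.36 on the log2 scale (SE, adjusted p = 0.0031) with all libraries and by 2.04 ± 0.28 (adjusted p = 0.0032) without replicate 2. In bulk tissue such as this, fewer cells of a type and less RNA per cell cannot be told apart.

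Acan (chr7:79053483-79115099, + strand) encodes aggrecan, the large proteoglycan that holds water in cartilage. Its levels were 21.4, 69.0, 15.4 and 21.9 CPM on day 21 and 6.60, 6.20, 4.06 and 4.82 CPM on day 35. The groups did not overlap, and 3 of the 4 day 21 libraries lay close together, with replicate 2 above them. The fall was 2.57 ± 0.38 on the log2 scale (adjusted p = 0.0031), and 1.85 ± 0.27 (adjusted p = 0.0033) without replicate 2.

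Tnn (chr1:160085029-160153580, − strand) encodes tenascin-N, also called tenascin-W, a matricellular protein of bone and of stroma. It was measured at 29.5, 124, 20.7 and 35.6 CPM on day 21 and 10.2, 7.44, 6.64 and 10.3 CPM on day 35. No day 35 library reached the lowest library of day 21. The change was −2.61 ± 0.41 (adjusted p = 0.0034) with all libraries and −1.73 ± 0.26 (adjusted p = 0.0039) without replicate 2.

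Ptn (chr6:36714929-36810220, − strand) encodes pleiotrophin, a heparin-binding growth factor. Its values were 15.2, 34.0, 10.1 and 13.1 CPM on day 21 against 4.51, 4.80, 3.30 and 3.23 CPM on day 35. They fell in a narrow band on day 35 and were separate from those of day 21. Log2 changes were −2.21 ± 0.33 (adjusted p = 0.0031) and, without replicate 2, −1.70 ± 0.27 (adjusted p = 0.0049).

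C1qtnf3 (chr15:10952332-10980150, + strand) encodes CTRP3, a secreted protein with a collagen-like stretch and a C1q domain. Levels of 46.6, 183, 36.0 and 45.9 CPM on day 21 were followed by 14.5, 14.2, 10.8 and 13.5 CPM on day 35. Replicates 1, 3 and 4 of day 21 lay within a narrow range, some 2.49 times or more above every day 35 library. The fall was 2.56 ± 0.40 on the log2 scale (adjusted p = 0.0031), or 1.69 ± 0.24 (adjusted p = 0.0033) without replicate 2.

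**Figure D2:**
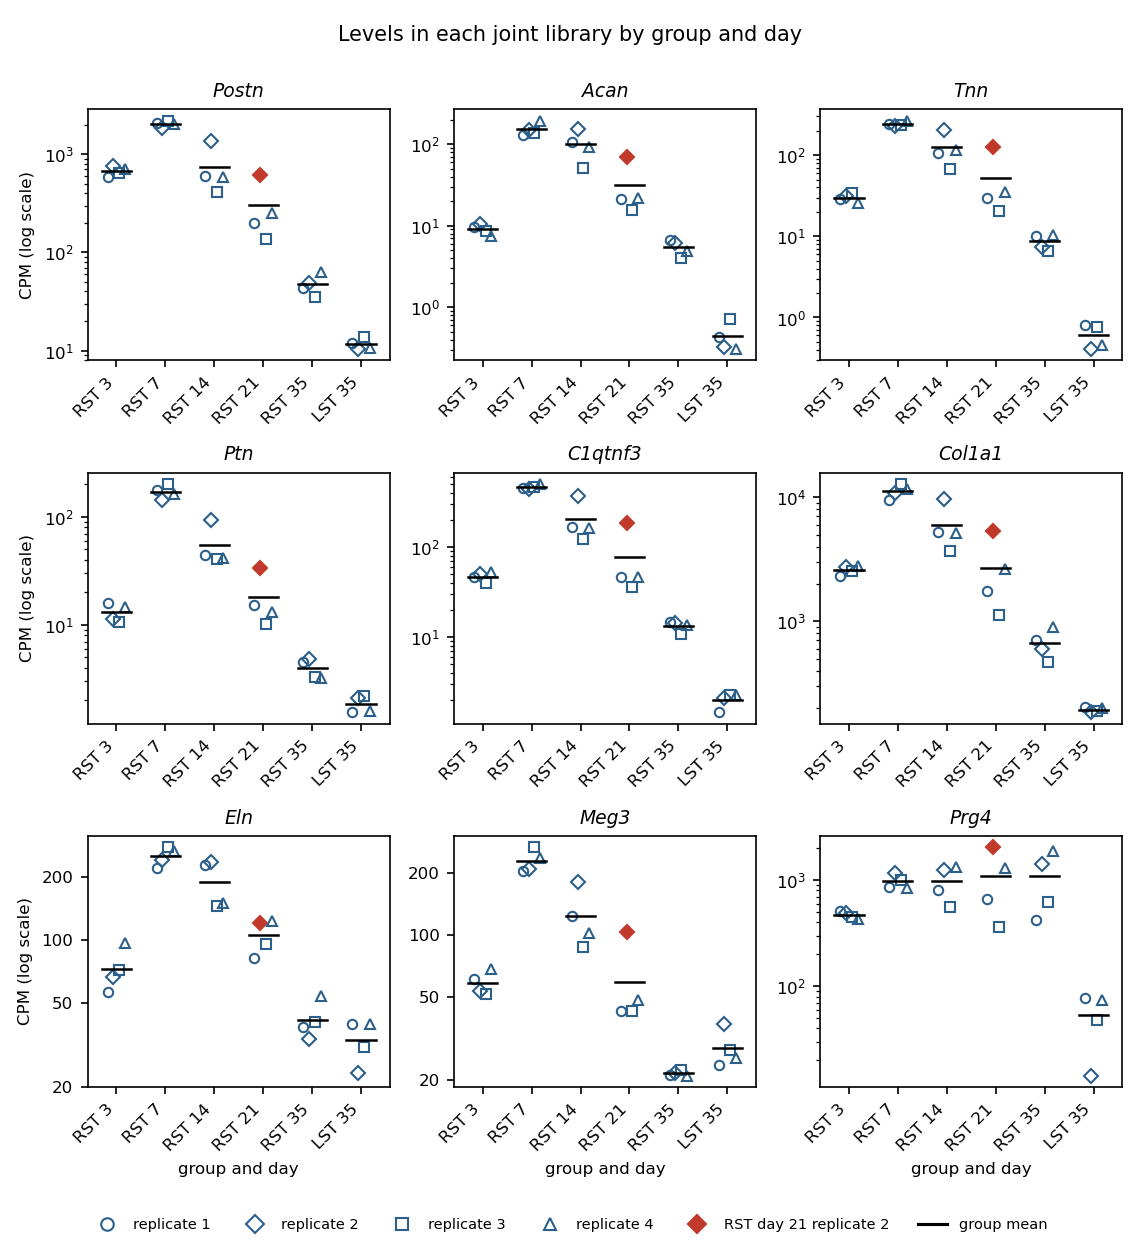
CPM on a log axis in each of the 24 joint libraries for 9 genes, by group and day, with a bar at each group mean and RST day 21 replicate 2 filled. Postn, Acan, Tnn, Ptn, C1qtnf3, Col1a1, Eln and Meg3 were highest on RST day 7 by group mean and fell again from day 21 to day 35, while Prg4 had nearly equal means on the last 2 RST days.

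Among the gene families taken by symbol after values were seen, the collagen chains, the largest of them, held the most falls by count but not by share. Of 43 collagen chain genes tested, 21 were lower on day 35 with all libraries, beside 3.89% of all genes tested, and none was higher. A negative fitted change was found in 39, and the median log2 change was −1.08 against −0.01 over all genes tested. Without replicate 2, 6 passed, all lower, beside 0.207% of all genes tested, and the median was −0.78. The 6 were Col1a1, Col1a2, Col11a1, Col12a1, Col15a1 and Col18a1. Those past the test with all libraries also included the chains of type III, V, VI and VIII collagen and the basement membrane chains Col4a1 and Col4a2. The shares of 3.89% and 0.207% are the background for the counts of each family and list below. Thrombospondins held 3 of 4 genes lower with all libraries and 1 without replicate 2, and elastic fibre genes 6 of 10 and 3. For the C1q and TNF related proteins these were 3 and 2 of 8, and for the matrix metallopeptidases 5 and 0 of 16.

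Col1a1 (chr11:94936224-94953042, + strand) and Col1a2 (chr6:4504814-4541544, + strand) encode the 2 chains of type I collagen, the main fibre of tendon, bone and scar. Col1a1 stood at 1749, 5341, 1113 and 2631 CPM on day 21 and at 711, 594, 473 and 894 CPM on day 35. Col1a2 stood at 1407, 4000, 977 and 2090 CPM and then at 680.2, 559, 461 and 729 CPM. In both genes replicate 3 was the lowest library of each day and replicate 2 the highest of day 21, and the days did not overlap. Col1a1 fell by 2.02 ± 0.34 on the log2 scale and Col1a2 by 1.80 ± 0.30 (both adjusted p = 0.0053), and without replicate 2 by 1.45 ± 0.26 and 1.30 ± 0.23 (both adjusted p = 0.014). That second call was lost for either gene when day 21 replicate 4 or day 35 replicate 2 or 3 was left out as well, with adjusted p = 0.315, 0.0749 and 0.0852 for each of them.

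Col11a1 (chr3:114030540-114220718, + strand), a fibril chain that helps to set the width of collagen fibres, was measured at 26.5, 94.7, 18.4 and 35.3 CPM on day 21 and 10.7, 7.28, 4.59 and 7.18 CPM on day 35. Col12a1 (chr9:79598991-79718831, − strand), which coats fibrils in dense connective tissue, went from 80.6, 303, 49.1 and 112 CPM to 33.3, 23.8, 19.2 and 34.3 CPM. The 4 day 35 libraries lay below all day 21 libraries in both. Col11a1 fell by 2.56 ± 0.39 and Col12a1 by 2.30 ± 0.38 on the log2 scale (adjusted p = 0.0031 and 0.0053), and by 1.84 ± 0.29 and 1.54 ± 0.27 without replicate 2 (adjusted p = 0.0049 and 0.01). Col12a1 lost the call when day 21 replicate 4 or day 35 replicate 2 or 3 was left out as well (adjusted p = 0.253, 0.0575 and 0.0694).

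Col15a1 and Col18a1 encode collagens of basement membranes, the thin sheets under endothelium and around muscle fibres. Col15a1 fell by a smaller amount than the fibril chains, from 63.7, 116, 71.3 and 84.9 CPM to 47.5, 47.8, 46.7 and 42.8 CPM, a log2 change of −0.67 ± 0.12 without replicate 2 (adjusted p = 0.018). It was the one gene of the 34 whose RST mean was highest on day 14 and not on day 7. Col18a1 changed by −1.03 ± 0.21 in that fit (adjusted p = 0.031). Both lost the call when day 21 replicate 4 or day 35 replicate 2, 3 or 4 was left out too, and Col18a1 also without day 35 replicate 1, with adjusted p from 0.0545 to 0.635.

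Elastic fibre genes were also among the falls. Of 10 tested genes named as elastin, fibrillins or microfibril-associated proteins, 6 were lower with all libraries and 3 without replicate 2, namely Eln, Mfap2 and Mfap4. Eln (chr5:134702593-134747323, − strand), which encodes elastin itself, stood at 82.1, 119.9, 95.9 and 123 CPM on day 21 and 38.6, 33.8, 40.9 and 54.1 CPM on day 35. Here replicate 2 did not stand apart, since replicate 4 was slightly higher, and the 2 fits gave nearly the same fall, 1.33 ± 0.20 (adjusted p = 0.0031) and 1.26 ± 0.21 (adjusted p = 0.0073) on the log2 scale. Mfap2 and Mfap4 encode small glycoproteins of the microfibrils on which elastin is laid down. Mfap4 was at 24.7, 43.4, 18.8 and 35.3 CPM and then at 10.7, 9.65, 9.80 and 13.04 CPM, a fall of 1.28 ± 0.21 without replicate 2 (adjusted p = 0.0066). Mfap2 was at 11.9, 27.0, 8.83 and 15.01 CPM and then at 4.22, 5.12, 4.97 and 5.18 CPM, a fall of 1.29 ± 0.20 in that fit (adjusted p = 0.0049). Both were separate between the days. Fbn1 and Fbn2, the fibrillins that build microfibrils, passed with all libraries (log2 changes −0.94 ± 0.23 and −2.28 ± 0.44, adjusted p = 0.028 and 0.012) but not without replicate 2, where they changed by −0.60 ± 0.19 and −1.49 ± 0.35 (adjusted p = 0.24 and 0.096). Col11a1, Eln, Mfap2, Mfap4 and the noncoding RNA Meg3 lost their call without replicate 2 in 1 of its 16 settings, the one that also left out day 21 replicate 4 (adjusted p = 0.0988, 0.133, 0.118, 0.152 and 0.118).

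Further secreted or surface proteins of activated fibroblasts were among the 34. Adam12, a membrane metallopeptidase, was at 7.75, 28.0, 5.54 and 9.12 CPM on day 21 and at 3.04, 2.05, 1.34 and 2.21 CPM on day 35, and fell by 1.79 ± 0.36 without replicate 2 (adjusted p = 0.035). Thbs2, a matricellular thrombospondin, fell by 1.32 ± 0.25 (adjusted p = 0.019) and Cthrc1, a secreted collagen triple helix protein of injured tissue, by 1.26 ± 0.24 (adjusted p = 0.019). Cthrc1 had the largest ratio of RST day 35 to LST of the 34: its mean was 12.9 ± 4.09 CPM (SD, n = 4) on RST day 35 and 0.689 ± 0.163 CPM in LST. Aspn, a small leucine-rich proteoglycan, fell by 0.99 ± 0.18 (adjusted p = 0.015). These 4 genes did not overlap between the days. Each lost the call when day 21 replicate 4 was also left out (adjusted p = 0.387, 0.415, 0.315 and 0.317) and when day 35 replicate 2 or 3 was. Adam12 lost it as well without day 21 replicate 1 or day 35 replicate 4, Thbs2 and Cthrc1 without day 35 replicate 1, and Aspn without day 35 replicate 4, so that adjusted p ranged from 0.0518 to 0.415 over these fits.

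The list of 28 fibrillar matrix and activated fibroblast genes held 23 members that were lower on day 35 with all libraries and 8 without replicate 2. Of all genes tested, 3.89% and 0.207% were lower in these fits. The list medians were −1.37 and −0.99 on the log2 scale. Its summed level was 10577, 29596, 7317 and 15573 CPM in the day 21 libraries and 5240, 6766, 4733 and 9512 CPM on day 35. Day 35 replicate 4 exceeded day 21 replicate 3 in that sum, so the summed levels of the days overlapped. Fn1, Acta2, Dcn, P4ha1 and P4ha2 are named here after their values were seen, as abundant repair genes that did not pass. Fn1, which encodes fibronectin, had a log2 change of −0.28 ± 0.41 with all libraries (adjusted p = 0.708) and 0.31 ± 0.37 without replicate 2 (adjusted p = 0.853). Acta2, the actin of myofibroblasts and smooth muscle, changed by −0.32 ± 0.17 (adjusted p = 0.282). Of 19 small leucine-rich proteoglycans and collagen assembly genes, 6 were lower with all libraries and 1, Aspn, without replicate 2. Dcn, which encodes decorin, changed by −0.10 ± 0.12 (adjusted p = 0.651), and the collagen prolyl hydroxylase genes P4ha1 and P4ha2 by 0.01 ± 0.07 and −0.04 ± 0.08 (adjusted p = 0.973 and 0.770), whereas P4ha3 fell by 1.64 ± 0.38 (adjusted p = 0.024) with all libraries.

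Some cartilage and tendon genes were among the falls. In the list of 18 chondrocyte and cartilage matrix genes, 15 were tested, all with negative fitted changes, and 5 passed with all libraries and 2, Acan and Col11a1, without replicate 2. The medians were −1.75 and −1.67. The list's mean log2 CPM was high in 2 day 21 libraries, 2.94 in replicate 2 and 3.16 in replicate 4, against 1.62 and 1.71 in replicates 1 and 3, and the median was −0.42 with both left out. Col2a1, the fibril collagen of cartilage, was uneven on day 21, at 5.43, 27.9, 10.3 and 70.8 CPM, and lay at 2.99, 3.83, 3.44 and 7.39 CPM on day 35. Replicate 4, not 2, was highest, and day 21 replicate 1 lay inside the day 35 range. Its change of −2.71 ± 0.76 passed with all libraries (adjusted p = 0.048) and, at −2.72 ± 0.80, did not without replicate 2 (adjusted p = 0.2). Of 13 tenocyte and ligament genes 5 were lower with all libraries and 1 without replicate 2, namely Col1a1, already counted above among the collagens. Tnmd, a membrane protein of mature tendon cells, was at 24.5, 45.6, 18.1 and 28.5 CPM and then 16.8, 12.7, 9.80 and 11.5 CPM. These ranges did not overlap, and the log2 change without replicate 2 was −0.90 ± 0.19, just short of the threshold (adjusted p = 0.051).

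Growth factor, receptor and imprinted genes made up a further share of the 34. Igf1, a growth factor made by fibroblasts and macrophages, was at 75.3, 171, 57.9 and 90.5 CPM on day 21 and at 41.7, 41.7, 42.7 and 44.1 CPM on day 35. The 4 day 35 values agree within 1.06-fold, the day 21 values spread over 2.95-fold, and the ranges were separate. Igf1 fell by 0.81 ± 0.17 without replicate 2 (adjusted p = 0.037). Agtr2, a receptor for angiotensin II that is abundant in fetal and healing tissue, was at 3.74, 2.62, 1.32 and 4.11 CPM and then at 0.712, 1.13, 1.10 and 0.821 CPM. Replicate 2 was not its highest day 21 library, and the fall of 1.70 ± 0.34 without it (adjusted p = 0.027) matched the 1.64 ± 0.32 with all libraries. Igf1 and Agtr2 kept the call in 9 and 7 of the 16 settings without replicate 2, and each lost it when any further library other than day 21 replicate 3 was left out, with adjusted p up to 0.524 and 0.447, both without day 21 replicate 4.

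Plagl1, Mest and Meg3 are imprinted genes, expressed mainly from 1 parental copy and known for high levels in fetal and regenerating tissue. Meg3 (chr12:109541001-109571726, + strand), a long noncoding RNA, was at 43.0, 104, 43.1 and 48.6 CPM on day 21 and at 21.1, 21.5, 22.3 and 20.9 CPM on day 35. Its day 35 libraries differed by little more than 1 CPM, and none of them reached the day 21 range. Meg3 fell by 1.48 ± 0.24 (adjusted p = 0.0053) with all libraries and by 1.07 ± 0.18 (adjusted p = 0.0097) without replicate 2. Mest, a membrane protein of the hydrolase fold, was at 9.90, 27.1, 6.80 and 13.1 CPM and then 4.13, 3.99, 3.54 and 3.23 CPM and fell by 1.42 ± 0.28 without replicate 2 (adjusted p = 0.031). Plagl1, a zinc finger transcription factor, was at 11.1, 21.8, 7.90 and 10.6 CPM and then 1.90, 2.48, 5.07 and 4.52 CPM and fell by 1.501 ± 0.29 (adjusted p = 0.023). Both were separate between the days, and both lost the call when day 21 replicate 1 or 4 or day 35 replicate 1 or 2 was also left out, with adjusted p from 0.0682 to 0.474. Mest lost it as well without day 35 replicate 3 or 4 (adjusted p = 0.123 and 0.0736).

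A list of 22 imprinted genes was put together after these values had been seen, so its count is a description. Of 21 tested, 8 were lower with all libraries and 3 without replicate 2, with medians of −0.46 and −0.49. The list's mean log2 CPM did not overlap between the days. It was 3.77, 4.02, 3.69 and 3.87 on day 21, with replicate 2 highest, and 3.14, 3.06, 3.26 and 3.21 on day 35. The list's sum, most of which was H19, did not set replicate 2 apart. It was 1724, 2002, 2130 and 2145 CPM on day 21 and 1524, 1521, 1617 and 1345 CPM on day 35. Dlk1, which lies beside Meg3 on chromosome 12 and encodes a membrane protein of the Notch ligand family, was at 2.49, 2.66, 1.65 and 2.33 CPM on day 21 and at 0.522, 0.377, 0.574 and 0.616 CPM on day 35, a log2 change of −2.12 ± 0.44 (adjusted p = 0.016) with all libraries and −2.03 ± 0.49 (adjusted p = 0.11) without replicate 2. H19, the most abundant of the list, was at 1109, 1293, 1571 and 1550 CPM and then 1031, 1063, 1112 and 823 CPM, so the days overlapped, and did not pass (−0.46 ± 0.14, adjusted p = 0.059). Igf2 did not pass either (−0.75 ± 0.22, adjusted p = 0.057), and Peg3, Igf2r and Ndn changed by −0.23 ± 0.21, −0.10 ± 0.09 and −0.05 ± 0.16. The noncoding genes Meg3, Rian and Mirg overlap many small RNA genes, and the counting of overlapping genes is not given in the sources used here, so their counts may include those of neighbours.

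Without replicate 2, the largest fitted falls among the 34 were in 2 genes of low abundance. Ttk, a mitotic kinase, and Cpz, a carboxypeptidase of the matrix, fell by 2.41 ± 0.50 and 2.19 ± 0.43 on the log2 scale without replicate 2 (adjusted p = 0.039 and 0.023), at levels of 0.0949, 0.108, 0.143 and 0.0513 CPM and 0.569, 0.216, 0.239 and 0.205 CPM on day 35. Both lost the call when any further library was left out other than day 21 replicate 3 and, for Cpz, day 35 replicate 1, with adjusted p from 0.0677 to 0.313. Ccdc141, a coiled-coil protein, fell by 0.84 ± 0.13 without replicate 2 (adjusted p = 0.0057) and by 0.75 ± 0.13 with all libraries. It was at 6.00, 5.40, 7.13 and 7.98 CPM on day 21 and 3.84, 4.04, 4.16 and 3.70 CPM on day 35, and it was the one gene of the 34 for which replicate 2 was the lowest library of day 21. Without replicate 2 it lost the call when day 21 replicate 4 was also left out (adjusted p = 0.118), in the fit of the 7 libraries alone (0.0598) and with a replicate block (0.0655).

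Few genes rose. Ccdc3 (chr2:5137776-5230878, + strand), a secreted coiled-coil protein made by fat and endothelial cells, was the single gene that was higher on day 35 in both fits. It stood at 1.98, 3.47, 2.14 and 3.77 CPM on day 21 and at 4.41, 5.88, 5.26 and 6.93 CPM on day 35. The lowest day 35 library was 1.17 times the highest day 21 library. Its rise was 0.97 ± 0.21 (adjusted p = 0.018) with all libraries and 1.08 ± 0.23 (adjusted p = 0.039) without replicate 2. With that library left out, it lost the call when day 21 replicate 1 or 3 or day 35 replicate 2, 3 or 4 was left out too (adjusted p from 0.0845 to 0.198), and in the fit of the 7 libraries alone (adjusted p = 0.187). In the fit of all libraries it lost the call without day 35 replicate 2 or 3 (adjusted p = 0.0635 and 0.0548). RST day 35 was its highest group, at 5.62 ± 1.06 CPM (SD, n = 4) against 2.17 ± 0.263 CPM in LST.

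The other rises passed only with all libraries. G0s2, an inhibitor of the lipase that releases fat from adipocytes, was at 21.4, 13.5, 23.1 and 14.1 CPM and then 37.8, 38.1, 41.8 and 30.7 CPM, a rise of 1.05 ± 0.25 (adjusted p = 0.024) that became 0.92 ± 0.26 (adjusted p = 0.18) without replicate 2. Gstm7, a glutathione transferase, was at 2.77, 1.69, 3.35 and 2.23 CPM and then 4.70, 4.31, 5.50 and 4.05 CPM, with changes of 0.90 ± 0.22 (adjusted p = 0.029) and 0.74 ± 0.23 (adjusted p = 0.23). Both sets of ranges were separate, with replicate 2 the lowest library of day 21. Pou4f1, a transcription factor of sensory neurons, rose by 0.53 ± 0.14 (adjusted p = 0.035), with nearly the same size without replicate 2 (0.55 ± 0.15, adjusted p = 0.18). Zfp180, a zinc finger protein, and Tatdn2, a putative nuclease, rose by 0.38 ± 0.09 and 0.28 ± 0.07 (adjusted p = 0.029 and 0.024), and without replicate 2 changed by 0.31 ± 0.10 and 0.27 ± 0.07 (adjusted p = 0.23 and 0.17). All 13 genes that rose had ranges that did not overlap, as had 391 of the 628 that fell, beside 9.30% of all genes tested. The test used the same libraries, so this separation is no further support for the calls. No gene list held a member that rose in either fit. On day 35 the RST means of Zfp180 and Tatdn2, 34.1 ± 1.22 and 44.8 ± 1.88 CPM (SD, n = 4), lay near those of LST, at 37.8 ± 3.27 and 44.6 ± 3.13 CPM.

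**Figure D3:**
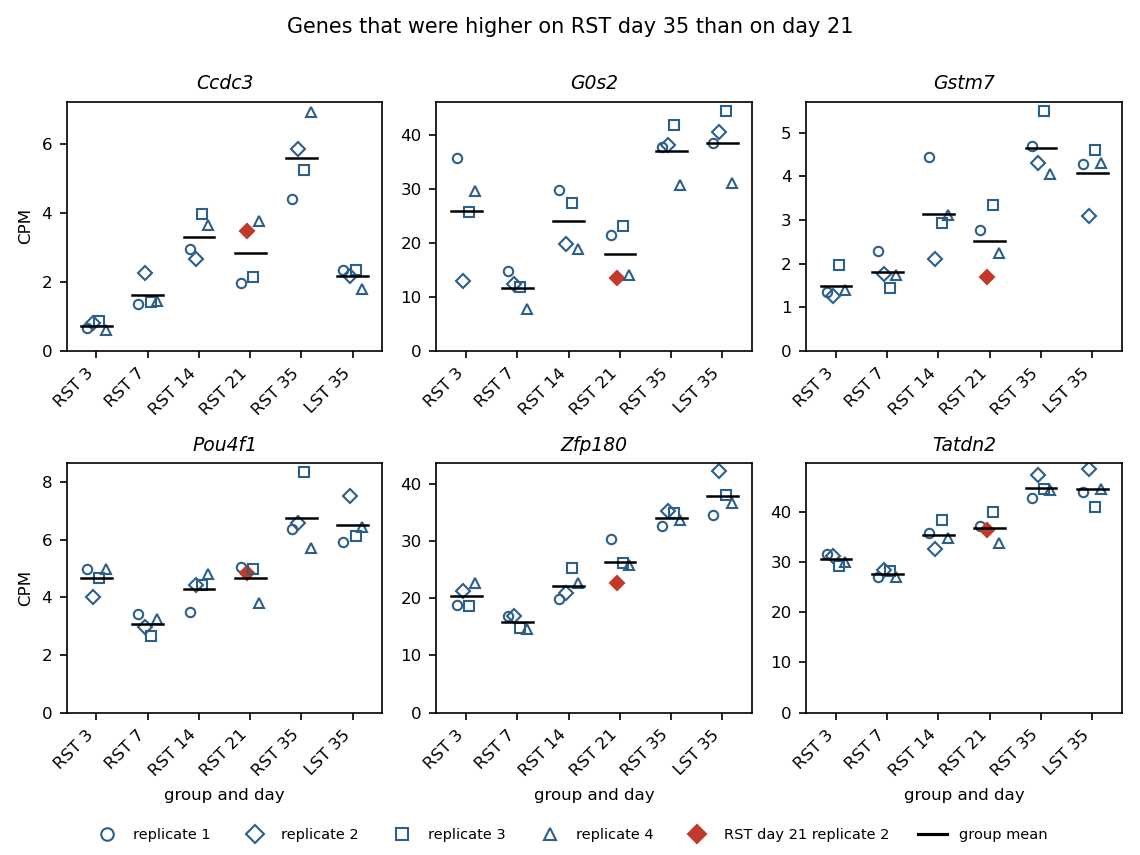
CPM on a linear axis from 0 in each of the 24 joint libraries for 6 genes higher on RST day 35 than on RST day 21, with a bar at each group mean and RST day 21 replicate 2 filled. Ccdc3 was above LST on RST day 35, while the other 5 genes had RST day 35 means near those of LST.

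The lists of inflammation, recruited macrophages, bone resorption, proteolysis and division held members that passed with all libraries and none that passed without replicate 2, though their medians were negative in both fits. In the list of 20 acute inflammatory cytokines and chemokines, all 19 members tested had negative fitted changes and 5 passed with all libraries. The median went from −1.84 to −0.50 without replicate 2, where none passed. The summed level was 35.7, 153, 30.4 and 37.6 CPM on day 21 and 16.3, 22.5, 23.5 and 36.1 CPM on day 35. Replicate 2 stood far above the other 7 libraries, whose sums overlapped between the days. Cxcl5, a neutrophil attractant, was at 1.92, 15.7, 1.54 and 2.13 CPM and then 0.0949, 1.08, 0.765 and 1.18 CPM, and changed by −2.84 ± 0.70 (adjusted p = 0.029) with all libraries and −1.28 ± 0.56 (adjusted p = 0.46) without replicate 2. Ccl2, a monocyte attractant, was at 1.98, 5.77, 2.41 and 2.53 CPM and then 0.712, 0.863, 1.19 and 0.821 CPM, with changes of −1.84 ± 0.37 (adjusted p = 0.014) and −1.36 ± 0.35 (adjusted p = 0.13). In Cxcl5 and Ccl2 the ranges of the days were separate with or without that library. Il1b did not pass in either fit (−2.45 ± 0.71, adjusted p = 0.051, and −0.93 ± 0.58, adjusted p = 0.68). The endothelial adhesion molecules Sele and Selp, which slow white cells on the vessel wall, changed by −2.47 ± 0.50 and −2.03 ± 0.41 (both passed, adjusted p = 0.015 and 0.014), and without replicate 2 by −1.34 ± 0.33 and −1.24 ± 0.31 (adjusted p = 0.11 and 0.12).

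Monocyte and recruited macrophage markers had 7 of 20 members lower with all libraries and none without replicate 2, beside 3.89% and 0.207% of all genes tested. Their medians were −1.03 and −0.73. Spp1, which encodes osteopontin, was at 209, 616, 126 and 363 CPM on day 21 and at 101, 73.2, 62.8 and 125 CPM on day 35. The lowest day 21 library and the highest day 35 library nearly met. Its change was −1.86 ± 0.39 (adjusted p = 0.017) and −1.36 ± 0.36 (adjusted p = 0.14) without replicate 2. Ms4a7, a macrophage membrane protein, changed by −1.58 ± 0.33 and −1.19 ± 0.31 (adjusted p = 0.016 and 0.13). Markers of tissue-resident macrophages held 3 of 15 members lower with all libraries and none without replicate 2, and their medians were near 0 in both fits (−0.00 and 0.01). Of 9 class II antigen presentation genes tested, 3 were lower with all libraries, among them H2-Eb1, at 47.8, 63.8, 43.6 and 54.8 CPM and then 28.0, 31.5, 35.8 and 33.6 CPM (−0.70 ± 0.16, adjusted p = 0.024, and −0.60 ± 0.17, adjusted p = 0.17, without replicate 2). Its days did not overlap with or without that library.

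Osteoclast markers stand for the cells that resorb bone. They held 4 of 14 members lower with all libraries and none without replicate 2 (medians −1.03 and −0.61), beside 3.89% and 0.207% of all genes tested. Acp5, the acid phosphatase of osteoclasts, was at 13.8, 56.7, 7.35 and 31.7 CPM and then 10.8, 5.01, 5.83 and 8.78 CPM, so the days overlapped, and changed by −1.86 ± 0.43 and −1.21 ± 0.38 (adjusted p = 0.024 and 0.24). Tnfsf11, the ligand that drives osteoclast formation, was at 1.25, 4.84, 1.04 and 2.38 CPM and then 0.285, 0.270, 0.0956 and 1.08 CPM and changed by −2.50 ± 0.56 and −1.87 ± 0.55 (adjusted p = 0.02 and 0.21). Of 21 matrix proteases and inhibitors tested, 5 were lower with all libraries and none without replicate 2 (medians −0.91 and −0.29). Mmp14, a collagenase of the cell membrane, was at 109.9, 337, 84.1 and 158 CPM and then 50.5, 60.9, 45.9 and 81.8 CPM. It changed by −1.53 ± 0.31 (adjusted p = 0.014) with all libraries and −0.97 ± 0.23 (adjusted p = 0.1) without replicate 2. Mmp13, a secreted collagenase, was at 32.9, 201, 41.6 and 83.7 CPM and then 35.4, 22.6, 17.7 and 27.2 CPM. Day 35 replicate 1 exceeded day 21 replicate 1, and the changes were −1.81 ± 0.45 and −1.03 ± 0.36 (adjusted p = 0.029 and 0.32). Mmp12, the elastase of macrophages, hardly differed in its means, 16.6 ± 4.60 CPM on day 21 and 14.4 ± 7.10 CPM on day 35 (SD, n = 4), with adjusted p = 0.71, and was at 0.176 ± 0.0334 CPM in LST.

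Cell cycle genes held 4 of 25 members lower with all libraries and none without replicate 2 (medians −1.07 and −0.67). Mki67, a marker of dividing cells, was at 11.5, 21.3, 4.39 and 11.1 CPM on day 21 and at 3.94, 4.53, 2.10 and 5.95 CPM on day 35. Day 21 replicate 3 lay inside the day 35 range. Mki67 changed by −1.57 ± 0.39 (adjusted p = 0.029) and by −1.13 ± 0.37 (adjusted p = 0.26) without replicate 2. Endothelial genes held 6 of 18 members lower with all libraries and none without replicate 2, with small medians (−0.32 and −0.27), and all 18 had a negative fitted change without it. Apln, a peptide of sprouting vessels, changed by −1.31 ± 0.24 and −1.07 ± 0.24 (adjusted p = 0.0095 and 0.076).

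**Figure D4:**
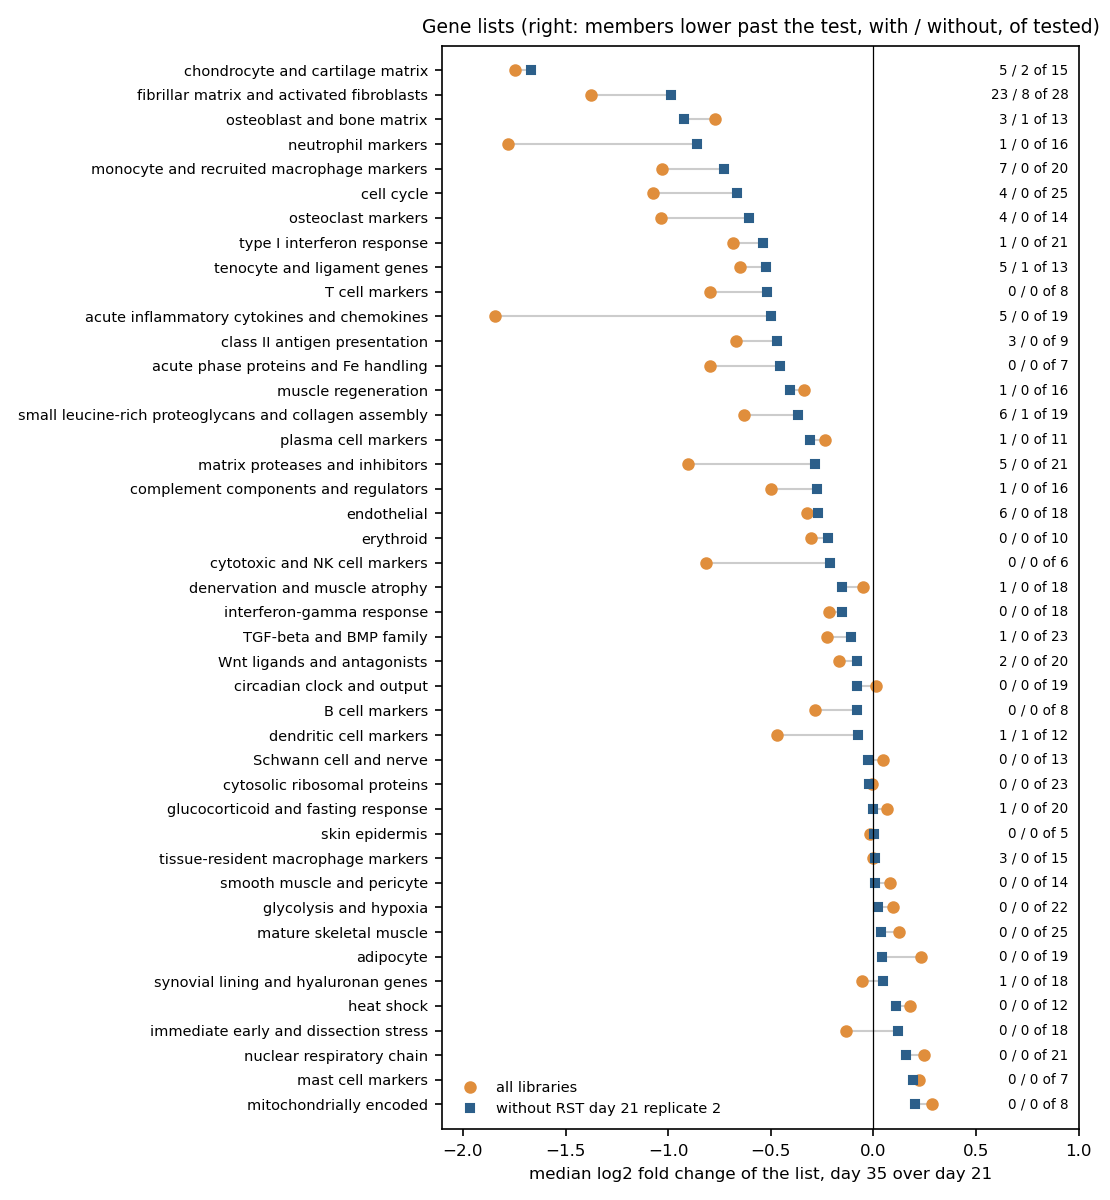
Median log2 fold change from RST day 21 to RST day 35 of 43 gene lists, with all libraries (circles) and without RST day 21 replicate 2 (squares), with the number of members lower past the test in each fit at the right. The cartilage and fibrillar matrix lists have the lowest medians without that library, and the acute inflammatory list has the widest gap between the fits.

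Of 18 tested in the list of synovial lining and hyaluronan genes, 1 was lower with all libraries and none without replicate 2, beside 3.89% and 0.207% of all genes tested, and the medians were −0.06 and 0.05. Prg4 (chr1:150449412-150466165, − strand), which encodes lubricin, the lubricant of joint surfaces, was at 661, 2035, 360.5 and 1313 CPM on day 21 and at 424, 1437, 621 and 1865 CPM on day 35. The ranges overlapped almost fully, the change was −0.01 ± 0.48 (adjusted p = 0.99), and the RST day 35 mean stood far above the 53.3 ± 29.1 CPM (SD, n = 4) of LST. Has1, a hyaluronan synthase, was at 5.32, 25.7, 6.09 and 19.5 CPM and then 7.59, 15.3, 8.75 and 28.7 CPM (0.07 ± 0.51, adjusted p = 0.95), against 0.623 ± 0.258 CPM in LST. Htra1, a secreted protease, was at 116 ± 44.9 CPM and then 120.3 ± 52.0 CPM (0.05 ± 0.25, adjusted p = 0.92). In all 3 genes replicates 2 and 4 were the higher libraries on both days. The member that passed was Cemip, which breaks down hyaluronan, at 7.98, 32.8, 8.06 and 14.8 CPM and then 6.64, 4.80, 3.01 and 7.08 CPM (−1.58 ± 0.37, adjusted p = 0.024, and −0.94 ± 0.30, adjusted p = 0.24, without replicate 2).

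**Figure D5:**
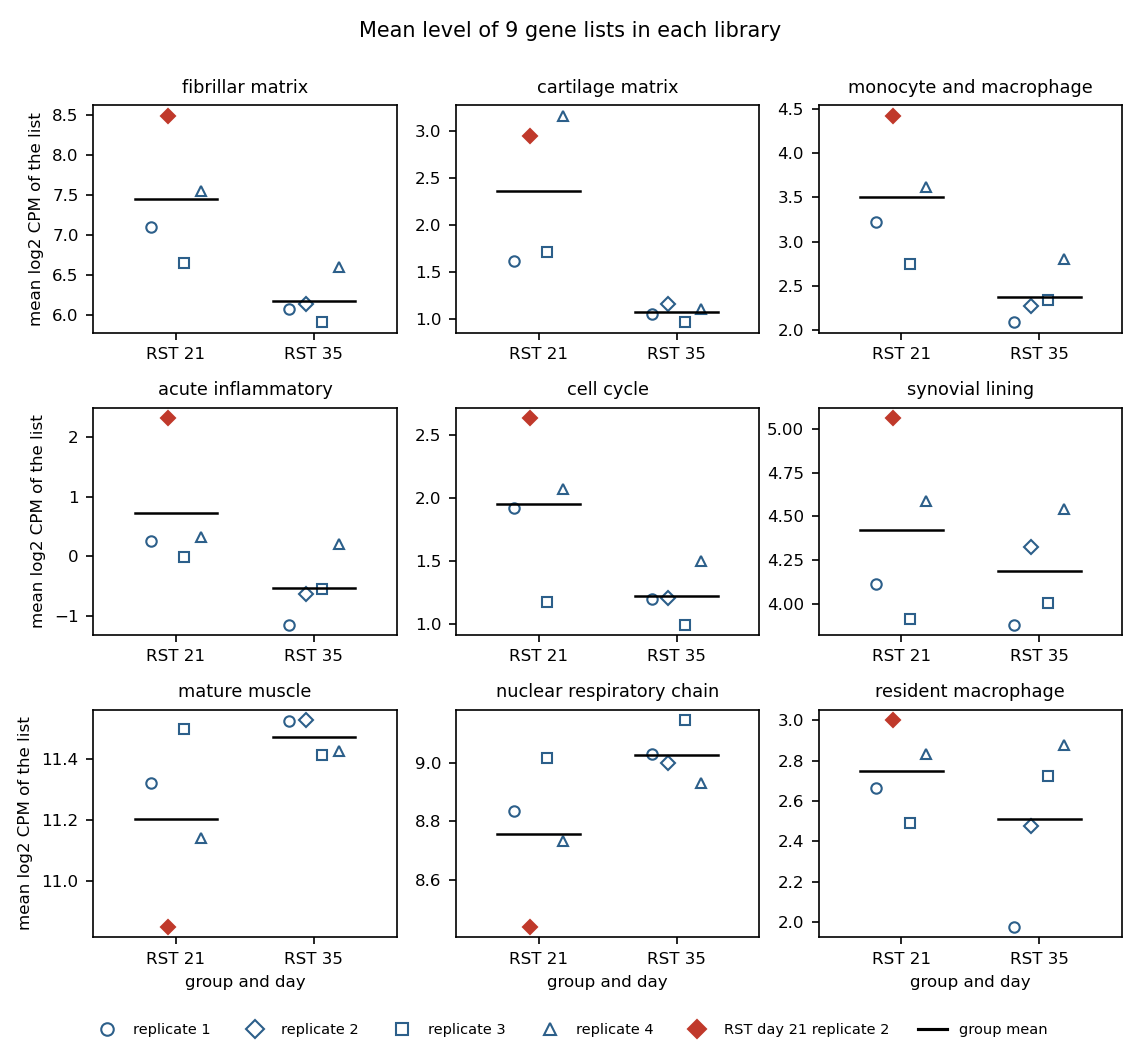
Mean log2 CPM of 9 gene lists in each RST library of days 21 and 35, with a bar at each group mean and RST day 21 replicate 2 filled. The filled point is highest or second highest in the matrix, macrophage, inflammatory, cell cycle and synovial lists and lowest in the muscle and respiratory chain lists.

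Mature muscle and mitochondrial genes had mostly positive fitted changes, none past the test. Other muscle lists did not. Of 16 muscle regeneration genes, 10 had negative fitted changes with all libraries and 11 without replicate 2 (medians −0.34 and −0.41). Of 18 denervation and muscle atrophy genes, these were 10 and 12 (medians −0.05 and −0.15). Each of these lists held 1 gene lower with all libraries, Ncam1 and Runx1, and none without replicate 2. Of 25 mature skeletal muscle genes, 1 had a negative fitted change with all libraries and 10 without replicate 2, with medians of 0.12 and 0.04, and their mean log2 CPM on day 21 was 10.85 in replicate 2 against 11.14 to 11.50 in the others and 11.41 to 11.53 on day 35. Mb, the oxygen store of slow muscle, was at 1044, 679, 1455 and 904 CPM and then 1649, 1342, 1549 and 1284 CPM (0.51 ± 0.29, adjusted p = 0.3). All 21 nuclear respiratory chain genes had positive fitted changes in both fits without 1 passing, with medians of 0.25 and 0.16, and so had the 8 mitochondrially encoded genes tested (0.29 and 0.20). Lpl, the lipoprotein lipase of fat and muscle, was at 659, 367, 647 and 438 CPM and then 756, 611, 952 and 813 CPM (0.57 ± 0.26, adjusted p = 0.2). The muscle level was thus lowest in replicate 2 of day 21, where matrix genes were highest, and its part in their falls was not tested. Day 21 replicates 1 and 3, at 270720 and 269570 CPM of summed muscle genes, lay just above the day 35 range of 260050 to 269200 CPM. Replicate 4, at 258660 CPM, lay below it. By mean log2 CPM of these genes, replicates 1 and 4 (11.32 and 11.14) lay below the day 35 range. Replicate 3 had 137 CPM of Postn against at most 63.2 CPM on day 35, and 36.0 CPM of C1qtnf3 against at most 14.5 CPM. A link between the muscle level and these values was not tested.

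Lists of the clock, of heat shock, of dissection stress and of the glucocorticoid and fasting response, kept as a watch on handling, held 1 called member between them. It was Angptl4, a fasting-induced inhibitor of lipoprotein lipase, which was lower with all libraries (−2.01 ± 0.47, adjusted p = 0.024) and not without replicate 2 (−1.67 ± 0.47, adjusted p = 0.18). Their medians lay between −0.13 and 0.18 with all libraries. The 23 cytosolic ribosomal protein genes had medians of −0.01 and −0.02 and no call.

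Seen against the other days, most genes that fell had peaked in the first week. Of the 34 genes lower in both fits, 33 had their highest RST mean on day 7 and 1 on day 14. Of the 628 lower with all libraries, 433 peaked on day 7, 161 on day 3, 31 on day 14 and 3 on day 21. Postn averaged 2039 ± 143 CPM on day 7, 736 ± 418 CPM on day 14, 301 ± 215 CPM on day 21 and 47.7 ± 11.7 CPM on day 35 (SD, n = 4), against 11.7 ± 1.598 CPM in LST. On day 35 the RST mean was above that of LST in 33 of the 34, by a median ratio of 2.22 over all 34, and in 25 of them every RST library exceeded every LST library. These ratios are levels and were not tested here. No share over all genes tested is given for the peak days or for the separation from LST. These counts therefore describe the falling genes and do not set them apart from other genes. Tnn and Acan kept ratios of 14.2 and 12.2, while Eln, Mest and Plagl1 were at 1.25, 1.11 and 1.15. Meg3 was the exception, with 21.5 ± 0.614 CPM on RST day 35 and 28.5 ± 6.12 CPM in LST, a ratio of 0.752.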

How the data were processed

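Total RNA of joint soft tissue (100 ng per library) was sequenced, per the labels' protocols. The authors deposited raw gene counts; fastp, STAR and the build mm10 are named, without versions, per the submitters' processing notes. Neither the counting program nor its strand setting is named (not given in the sources used here), so counts of overlapping, antisense and near-identical genes are uncertain. Many named genes overlap another annotated gene, among them Mfap4, Aspn, Col18a1, Mest, Meg3, G0s2, Prg4, Htra1 and Igf1. Ccdc3, Col1a2, Adam12, Ccdc141 and Spp1 overlap a gene on their own strand. Eln, Col12a1, Col15a1, Fbn1, Fbn2, Plagl1 and Mki67 are among those that overlap a gene on the other strand. All 24 joint columns were used and 0 left out, and 36591 gene IDs matched GENCODE M21, which gave gene positions.

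Counts of all 6 joint groups were fitted together with edgeR 4.0.16 in R 4.3.3 (filterByExpr with a minimum count of 10, TMM scaling, quasi-likelihood test), and RST day 35 was compared with RST day 21. P-values were adjusted over all genes tested by Benjamini-Hochberg, with a threshold of 0.05. The SE of a log2 fold change was derived from the test, as its absolute value over the square root of the F statistic. CPM are on the TMM scale, and log2 CPM use a prior count of 2. Alternatives were RLE and upper-quartile scaling, no count filter, DESeq2 1.42.0, limma 3.58.1 (voom with quality weights), a fit of the 8 libraries alone, a replicate block and each library left out. One more, the genes of the other fit, was chosen after seeing the data. The procedure was tested on simulated data. These held no library that stood apart from its group, so that test does not bear on day 21 replicate 2.

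The comparison, the 43 gene lists (10 to 28 members) and the tests were chosen with earlier results of these data known. Named genes were the 15 largest changes each way past the test with all libraries and the 10 largest without day 21 replicate 2, each with no overlap of the days and 50 or more raw counts on average in the higher group. To these were added up to 4 called members of each list, or the 3 of smallest p where none passed, and the 10 of smallest p in a direction with few calls. Clone-named and predicted genes were left out. A further 30 genes and the list of imprinted genes were chosen after their values were seen, among them Fbn1, Mfap2, Mfap4, Col1a2, Col15a1, Col18a1, Thbs2, Cthrc1, Igf1, Cpz, Ttk, Ccdc141, Prg4, Has1, Htra1, Il1b and Mmp12. Gene families were taken by symbol, also after values were seen.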

Additional observations from a re-analysis of the deposited data

Results flagged for a closer look

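Of 254 groups of 4 libraries tested for a single library far from the rest, by its gap to the nearest library over the range of the group, 15 passed Dixon's critical value. Chance passes about 1 in 20 groups. On RST day 21, replicate 2 stood above the other 3 libraries in Cxcl5 (ratio 0.8627), C1qtnf3 (0.8416), Meg3 (0.861), Ncam1 (0.892), Il1b (0.8308) and the mean of the acute inflammatory list (0.8594). Pou4f1 was low in replicate 4 of that day (0.856). The B cell list was low in day 21 replicate 4 (0.917) and the glucocorticoid and fasting list high in it (0.8495). On RST day 35, replicate 1 was high in Cpz (0.865) and low in the T cell list (0.8356), and replicate 2 was high in the B cell list (0.8374). Replicate 4 of day 35 was high in Ccn4 (0.888) and in the matrix protease list (0.9609), and low in the mitochondrially encoded list (0.8732).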

How the results depend on the processing

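With all libraries, the 641 genes became 1145 under DESeq2 (1075 lower, 70 higher), 272 under limma voom with quality weights (263 lower), and 1139 without the count filter (1109 lower, 30 higher). In the fit of the 8 libraries alone and with a replicate block, 0 genes passed in edgeR (0 higher and 0 lower), with 2763 and 3070 at an unadjusted p below 0.05. Leaving out 1 library at a time gave 35 to 1884 genes (34 to 1784 lower, 0 to 100 higher). Without day 21 replicate 2, the 35 genes became 97 under DESeq2 (95 lower, 2 higher), 73 under limma voom (72 lower), 291 without the count filter (277 lower, 14 higher) and 23 in the fit of the 7 libraries alone (0 higher). With the replicate block 125 passed there (117 lower, 8 higher), 29 of them among the 35. Leaving out a further library gave 6 to 85 genes (5 to 85 lower, 0 to 1 higher). Scaling by RLE or upper quartile kept every count of called genes within 1.5 times. Same-numbered libraries of the 2 days had correlations of their deviations of 0.0613, 0.0587, 0.118 and 0.0881, and day 21 replicate 2 correlated best with day 35 replicate 4 (0.307), so the numbers were not taken as pairs. Over the named genes, 2165 of 2781 values with all libraries stayed on their side of the threshold, 558 lost the call and 58 gained it. Without replicate 2 these were 2527, 134 and 120 of 2781. No called gene changed sign. List medians moved by more than the spread between replicates in 18 of 658 and 11 of 658 values; the cytotoxic cell list had no member tested in the 2 settings limited to the libraries of both days, and so no value there. The causes were not tested.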

Other observations

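Further regulators also changed with all libraries. Runx2, the transcription factor of bone-forming cells, was at 4.48 ± 2.55 CPM on RST day 21 and 1.67 ± 0.189 CPM on RST day 35 (SD, n = 4) and fell by 1.44 ± 0.36 on the log2 scale (edgeR, adjusted p = 0.029). Without day 21 replicate 2 it did not pass (−1.03 ± 0.34, adjusted p = 0.27). Runx1, a related factor of blood and injured muscle, fell by 1.30 ± 0.33 (adjusted p = 0.031) and changed by −0.90 ± 0.30 without that library (adjusted p = 0.28). Of 20 Wnt ligands and antagonists tested, Sfrp2, a secreted Wnt binder, and Ccn4, a matricellular Wnt target, were the 2 that passed with all libraries (−1.17 ± 0.26 and −1.94 ± 0.39, adjusted p = 0.02 and 0.014), and neither passed without replicate 2 (adjusted p = 0.17 and 0.12).

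Fscn1, an actin-bundling protein, was the 1 member of 12 dendritic cell markers tested that passed, and it did so in both fits, at 25.4, 59.4, 21.01 and 38.3 CPM on day 21 and 15.4, 14.6, 13.8 and 15.2 CPM on day 35 (−0.94 ± 0.16 without replicate 2, adjusted p = 0.012). The days did not overlap. Without replicate 2 it lost the call in the fit of the 7 libraries alone (adjusted p = 0.105) and when day 21 replicate 4 or day 35 replicate 2 or 3 was left out too (adjusted p = 0.309, 0.0526 and 0.0694). All 16 neutrophil markers tested had negative fitted changes with all libraries, and 1, Clec4d, passed (−1.59 ± 0.45, adjusted p = 0.048), beside 3.89% of all genes tested. Without replicate 2, 15 were negative and none passed, and the median went from −1.78 to −0.86. Clec4d was at 5.38, 17.6, 3.07 and 5.10 CPM on day 21 and at 1.28, 2.32, 2.58 and 4.41 CPM on day 35. Replicate 2 stood far above the other libraries, and the days overlapped. Of 21 type I interferon response genes, 20 had negative fitted changes in either fit, with medians of −0.69 and −0.54, and 1, Ddx58, an RNA sensor, passed with all libraries (−0.76 ± 0.19, adjusted p = 0.034). No gene of that list passed without replicate 2. Ncam1, an adhesion molecule of regenerating muscle and nerve, fell by 0.996 ± 0.21 with all libraries (adjusted p = 0.016) and changed by −0.75 ± 0.20 without replicate 2 (adjusted p = 0.14).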
